A study of Mus musculus with 6 samples.

Results

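The nuclear-encoded genes of oxidative phosphorylation (OXPHOS) were followed in ovaries of mouse embryos at E15.5 (E, embryonic day), with and without exposure to panobinostat (PB), an inhibitor of histone deacetylases. The members were chosen by gene symbol alone, as every gene name that starts like a subunit of one of the 5 complexes (Nduf followed by a, b, c, s or v and a number, Sdha to Sdhd, Uqcr, Cox4 to Cox8, Atp5). This rule found 86 of the 35976 gene names, of which 35 belong to complex I, 4 to complex II, 9 to complex III, 20 to complex IV and 18 to complex V. Ndufa4 and Ndufa4l2 were counted with complex IV. The 86 names include 2 pseudogenes (Uqcrh-ps1 and Atp5c1-ps) and 2 genes that do not encode structural subunits (Atp5s and Atp5sl).

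RNA-seq was performed on 3 pools of control ovaries and 3 pools of PB-exposed ovaries from C57BL/6J mice. The pregnant mice of the PB group received PB by oral gavage at 5 mg/kg every other day between E6.5 and E15.5, although the labels of the samples describe it as a daily dose. The control mice received the vehicle, DMSO and water. The sources give different pool sizes (4 ovaries in the sample annotation, 6 to 8 in the design text and a minimum of 8 in the RNA-seq methods), and a pool mixes all cells of the ovary, germ cells and somatic cells alike. The design text describes the libraries of both groups as coming from exposed mice, and the groups used here follow the treatment given for each sample. The labels name no genetic modification in either group. Where litters were divided between pools is not given in the sources used here, so the p-values measure the spread between these pools.

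Oxidative phosphorylation takes place in the inner mitochondrial membrane. Complex I takes electrons from NADH and complex II from succinate, complex III passes them to cytochrome c, and complex IV (cytochrome c oxidase) passes them on to oxygen. The proton gradient built by complexes I, III and IV drives complex V, the ATP synthase. Most subunits are encoded in the nucleus and a small group in mitochondrial DNA (mtDNA), except for complex II, which is wholly nuclear. Several subunits of complex IV exist as alternative isoforms, among them Cox6b2, Cox7b2 and Cox8c, known from the testis, and Cox6a2, Cox7a1 and Cox8b, known from heart and skeletal muscle. Mitochondria multiply strongly as germ cells become oocytes, which makes their supply of OXPHOS proteins of interest in a fetal ovary.

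The deposited counts summed to 97165644 to 125985399 per pool, and the 86 genes held 0.859% to 0.889% of them in each pool. Counts are given as CPM, that is relative to the library size, after scaling of library sizes, always for control 1, 2 and 3 and then for PB 1, 2 and 3. The 10 markers of germ cells and the 8 markers of pregranulosa cells, the somatic support cells of the ovary, were all detected in each pool. Control 2 and PB 2 stood apart from the other pools. The 10 germ cell markers together gave 1102, 855 and 1092 CPM in control and 1203, 721 and 1269.6 CPM in PB, and the 7 markers of striated muscle, a tissue foreign to the ovary, gave 41.5, 165 and 82.5 CPM in control and 33.4, 547 and 87.00 CPM in PB. Germ cell RNA was thus lowest, and muscle RNA highest, in control 2 and PB 2. In whole ovaries, fewer cells of a type and less RNA per cell cannot be told apart.

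Levels of different genes were compared per length, on the TPM scale, in which counts are divided by transcript length, since a longer transcript gives more reads. The ATP synthase genes Atp5b and Atp5a1, which encode the catalytic beta and the alpha subunit of the F1 head, reached 793 ± 30.6 and 494 ± 13.8 TPM in control (mean ± SD, n = 3). Cox4i1, the widely expressed form of cytochrome c oxidase subunit 4, came close at 722 ± 37.4 TPM. Among the 74 genes that encode widely expressed subunits or the supercomplex factor Cox7a2l, the median level over the 6 pools was 119 TPM in complex I, 153 TPM in complex II, 193 TPM in complex III, 294 TPM in complex IV and 219 TPM in complex V. Complex I, which has the most subunits, thus had the lowest median level per gene.

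The genes of 1 complex were not expressed at 1 common level. Within complex I, the accessory subunit gene Ndufb9 was the highest at 204 TPM and Ndufa11, an accessory subunit of the membrane arm, the lowest at 44.2 TPM (means of the 6 pools), a ratio of 4.61. The range was narrowest in complex II, from Sdhd at 135 TPM to Sdhc at 223 TPM, a ratio of 1.65. Both encode membrane anchors. In complex III, Uqcrh (the hinge protein) stood at 406 TPM and Uqcrq (a small accessory subunit) at 39.9 TPM, a ratio of 10.2. Cox4i1 was 11.1 times as high as Cox7b in complex IV, and Atp5b was 8.02 times as high as Atp5g1 in complex V. The lowest tested names of each of these 3 complexes were no such subunits. These were the pseudogene Uqcrh-ps1 with 0.938 TPM, the muscle isoform Cox8b with 0.653 TPM and Atp5s with 5.89 TPM. Many OXPHOS genes have near-identical processed copies elsewhere in the genome, and how the authors' alignment divided reads among them was not examined, so the level of a gene with such copies is uncertain. A level per length also depends on which transcripts the reads were assigned to. The mean transcript length, weighted by counts, was 1969 bases for Ndufa11 and 1439 bases for Uqcrq. In CPM, Ndufa11 was not the lowest of complex I, with 35.2 CPM in control against 28.9 CPM for Ndufa12. The part of transcript assignment in these low levels was not tested.

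The first question was whether PB exposure changed the level of any OXPHOS gene. No member was called by the rule used for the whole transcriptome, a fold change of at least 2 with a false discovery rate (FDR) of at most 0.05. Of the 86 genes, 85 passed the filter on low counts, and edgeR's quasi-likelihood test with Benjamini-Hochberg adjustment called 0 of them, against 3 of all 19437 genes tested (0.0154%). Atp5c1-ps, with 0 counts in all 6 pools, was not tested. DESeq2 also called 0. The smallest FDR of a member in edgeR was 0.888.

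At an unadjusted p under 0.05, edgeR listed 5 of the 85 genes as lower in PB (5.88%, against 2.43% of all genes tested) and 0 as higher (against 2.03%). DESeq2 listed 2 as lower (against 2.04% of the 26586 genes to which it gave a p) and 0 as higher (against 1.6%). The 5 genes were Atp5g3, Cox6c, Cox6b2, Cox4i1 and Atp5c1, and the last was named after its values were seen. The list was not stable when single pools were left out. The count of lower genes was 0 without control 1 (against 1.87% of all genes tested in that fit), 1 without control 2 (against 2.08%) and 3 without control 3 (against 2.16%). It was 1 without PB 1 (against 1.53%) and 1 without PB 3 (against 1.57%). Without PB 2 it was 9, with 5 other genes higher, but in that fit 4.9% of all genes tested were lower and 7.42% higher at this p. In each of the other 5 fits, 0 OXPHOS genes were higher. With both control 2 and PB 2 left out, 5 genes were lower (against 4.47% of all genes tested) and 5 higher (against 6.91%), and Atp5g3 was the 1 gene listed as lower both ways among those 5.

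**Figure D1:**
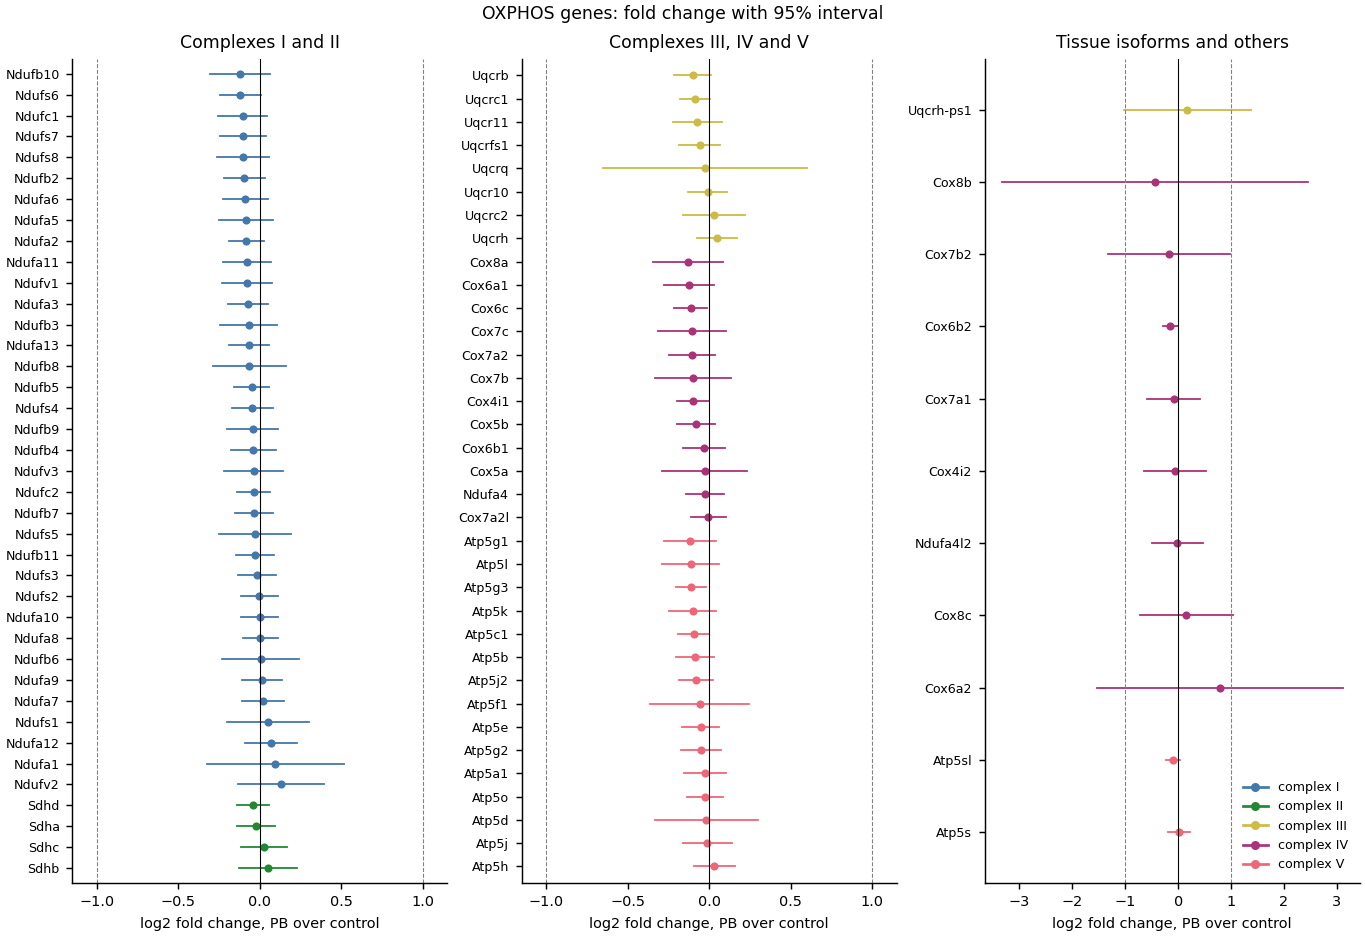
Each point is the log2 fold change of a gene in PB over control (x axis) and each bar its 95% interval, with the genes grouped and coloured by complex; dashed lines mark a 2-fold change. The left and middle panels hold the 74 widely expressed genes, all of whose intervals lie within a 2-fold change, and the right panel, on a wider axis, holds the 8 tissue isoforms, Uqcrh-ps1, Atp5s and Atp5sl.

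With the scaling used, the intervals of most members were narrow. The 95% interval of the fold change lay within 2-fold in either direction for 80 of the 85 genes, and within 1.2-fold for 61. Of all 19437 genes tested, 14876 and 6196 had such intervals, and of the 8487 above 20 CPM, 8229 and 5332. The intervals do not cover the choice of scaling. The 5 genes with wider intervals were the weakly expressed Cox6a2, Cox7b2, Cox8b, Cox8c and Uqcrh-ps1. The spread between pools of 1 group, as a coefficient of variation, had a median of 4.44% over the OXPHOS genes and 10.4% over all genes tested. Among all 8487 tested genes above 20 CPM, most of which are longer, that median was 5.69%.

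The fold changes lay slightly below 1 for most members. The median log2 fold change was -0.050 over the 85 genes and 0.0020 over all genes tested, and 68 of the 85 (80.0%) were below 0, against 49.3%. This count depended on PB 2 and on the scaling. It was 56 (65.9%, against 52.2%) without PB 2, 55 (64.7%, against 50.4%) without control 2 and PB 2, and 47 (55.3%, against 38.1%) with library sizes scaled by their totals alone. In 14 genes (16.5%), each PB pool was below each control pool, against 5.62% of all genes tested, and in 0 genes was each PB pool above each control pool, against 5.10%. Transcript length moved with this shift. Of all tested genes above 20 CPM, the 535 with a mean transcript length under 1000 bases had a median log2 fold change of -0.053, with 75.0% below 0 and 14.2% with all PB pools below all control pools, whereas the 7952 longer genes had a median of 0.0045. Of the OXPHOS genes above 20 CPM, the 49 short ones had a median of -0.069 and the 26 longer ones of -0.026. At an unadjusted p under 0.05 in edgeR, 6.12% of the 49 were lower in PB and 0% higher, against 5.42% and 1.12% of the 535. Among the longer genes, 3.85% of the 26 were lower, against 2.3% of the 7952. These length groups were set after the values were seen, and the part of length in the shift was not tested. With scaling by totals alone, the median of the members was -0.011 and that of all genes 0.040.

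Complex I holds an arm that takes up electrons from NADH and a membrane arm that pumps protons. Its 35 genes had a median log2 fold change of -0.043, from -0.12 to 0.13. At an unadjusted p under 0.05, 0 were lower (against 2.43% of all genes tested) and 0 higher (against 2.03%). Ndufv1, the subunit that binds NADH, had 171, 159.7 and 158 CPM in control and 159, 142 and 162 CPM in PB (log2 fold change -0.078, 95% interval -0.23 to 0.076, unadjusted p = 0.267). Ndufs1, the largest iron-sulfur subunit of the arm, had 157, 146 and 148 CPM in control and 167, 131 and 171 CPM in PB (log2 fold change 0.051, 95% interval -0.20 to 0.30, unadjusted p = 0.642). In both genes the groups overlapped, and PB 2 was the lowest of the 6 pools.

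The 2 genes with the smallest p among all members with higher values in PB were also from complex I. Ndufv2, an iron-sulfur subunit next to Ndufv1, had 111, 109.6 and 111 CPM in control and 122, 102 and 140.1 CPM in PB (log2 fold change 0.13, 95% interval -0.13 to 0.40, unadjusted p = 0.272). PB 1 and PB 3 were above each control pool, and PB 2 was below each of them. Ndufa12, an accessory subunit, had 29.3, 27.3 and 30.01 CPM in control and 32.2, 29.2 and 29.5 CPM in PB (log2 fold change 0.070, 95% interval -0.090 to 0.23, unadjusted p = 0.332). Here PB 1 alone was above each control pool. Ndufb9 and Ndufa11, the highest and the lowest gene of the complex per length, had log2 fold changes of -0.043 (95% interval -0.20 to 0.11) and -0.079 (95% interval -0.23 to 0.067).

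The 4 genes of complex II (succinate dehydrogenase), which also works in the citric acid cycle, had fold changes nearest to 1 as a group, with a median log2 fold change of 0.0016. Sdha, the subunit that binds succinate and FAD, had 317, 302 and 314 CPM in control and 308, 319 and 292 CPM in PB (log2 fold change -0.023, 95% interval -0.14 to 0.094, unadjusted p = 0.652). Sdhb, its iron-sulfur partner, had 99.1, 98.03 and 97.6 CPM in control and 106, 90.5 and 109 CPM in PB (log2 fold change 0.049, 95% interval -0.13 to 0.23, unadjusted p = 0.535). The groups overlapped in both. The intervals of the membrane anchors Sdhc and Sdhd, with log2 fold changes of 0.026 (95% interval -0.11 to 0.16) and -0.039 (95% interval -0.14 to 0.060), also included 0.

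In complex III, 8 of the 9 names encode subunits. Of the 9, 0 reached an unadjusted p under 0.05, against 2.43% lower and 2.03% higher among all genes tested. Uqcrc1, a core protein of the matrix side, had 256, 247 and 251 CPM in control and 243, 233 and 233 CPM in PB (log2 fold change -0.089, 95% interval -0.18 to 0.0033, unadjusted p = 0.0566). Each PB pool was below each control pool. Uqcrfs1, the Rieske iron-sulfur protein that passes electrons towards cytochrome c, had 90.2, 94.9 and 89.95 CPM in control and 86.1, 92.8 and 85.1 CPM in PB (log2 fold change -0.059, 95% interval -0.19 to 0.069, unadjusted p = 0.308). Uqcrh had 136, 151 and 140.4 CPM in control and 148, 145 and 149 CPM in PB and the third smallest p among members with higher values in PB (log2 fold change 0.049, 95% interval -0.072 to 0.17, unadjusted p = 0.369). In these 2 genes the groups overlapped.

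Uqcrq was the most variable of the widely expressed OXPHOS genes, with a coefficient of variation between pools of 27.0%. Its values were 41.5, 28.5 and 40.96 CPM in control and 36.9, 24.2 and 47.9 CPM in PB (log2 fold change -0.025, 95% interval -0.65 to 0.60, unadjusted p = 0.926). It was lowest in control 2 and PB 2, as were the germ cell markers, but how many genes share this order was not counted. The size of the difference depended on the transcripts counted, and with the transcripts of the RefSeq annotation alone the log2 fold change was -0.29. It ranged from -0.28 to 0.20 when any 1 pool was left out, so that its direction depended on single pools. An assembled transcript took up 2080 of the counts in PB 3 and had 0 counts in each control pool. The pseudogene Uqcrh-ps1 had at most 0.361 CPM.

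Complex IV, or cytochrome c oxidase, had 12 genes for widely expressed proteins, and the log2 fold change of each of these was below 0. The share below 0 was 49.3% of all genes tested and 75.0% of those above 20 CPM and under 1000 bases. For the 11 subunits among the 12 genes the median was -0.10, from -0.13 to -0.026. Cox4i1 (mm10 chr8:120668225-120674209) had 377, 367 and 358 CPM in control and 344, 337 and 347 CPM in PB (log2 fold change -0.10, 95% interval -0.20 to -0.0013, unadjusted p = 0.0478). Cox6c (mm10 chr15:35931976-35938246), a small subunit of the membrane part, had 132, 136 and 133 CPM in control and 127, 121 and 122 CPM in PB (log2 fold change -0.11, 95% interval -0.21 to -0.013, unadjusted p = 0.0322). Each PB pool was below each control pool in both. The means in PB were 0.933 and 0.925 times those in control, and both genes had an FDR of 0.888 in edgeR.

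Cox5a, a subunit of the matrix side, showed how 1 pool can set the spread. It had 110.0, 103 and 103 CPM in control and 111, 85.9 and 114 CPM in PB (log2 fold change -0.028, 95% interval -0.29 to 0.23, unadjusted p = 0.804), so that PB 1 and PB 3 were above each control pool and PB 2 was below each of them. Among the widely expressed partners of the tissue isoforms, Cox6a1 had 107, 111 and 98.5 CPM in control and 93.6, 103 and 94.02 CPM in PB, Cox7a2 had 82.1, 81.2 and 81.8 CPM in control and 74.4, 71.98 and 81.9 CPM in PB and Cox8a had 102, 109 and 95.2 CPM in control and 87.6, 105 and 87.4 CPM in PB. Their log2 fold changes were -0.13 (95% interval -0.28 to 0.028), -0.10 (95% interval -0.24 to 0.038) and -0.13 (95% interval -0.34 to 0.087). The groups overlapped in all 3 genes. Cox6b1, Cox7b and Ndufa4 had log2 fold changes of -0.032 (95% interval -0.16 to 0.098), -0.10 (95% interval -0.34 to 0.13) and -0.026 (95% interval -0.14 to 0.088).

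Complex V consists of the F1 head, which makes ATP, and the membrane part Fo with its stalks. The 17 tested genes had a median log2 fold change of -0.058, and 2 of them reached an unadjusted p under 0.05, both lower in PB (11.8%, against 2.43% of all genes tested). Of all tested genes above 20 CPM and under 1000 bases, 5.42% were lower at this p. Complex V holds both shorter and longer genes. Atp5b had 1022, 1036 and 1004 CPM in control and 949, 998 and 936 CPM in PB (log2 fold change -0.087, 95% interval -0.20 to 0.028, unadjusted p = 0.114), with each PB pool below each control pool. Atp5a1 had 819, 846 and 804 CPM in control and 806, 847 and 772 CPM in PB (log2 fold change -0.027, 95% interval -0.15 to 0.10, unadjusted p = 0.632), and its groups overlapped. Atp5c1, the gamma subunit of the rotating central stalk, had 168, 166 and 160.3 CPM in control and 153, 155 and 156 CPM in PB (log2 fold change -0.095, 95% interval -0.19 to -0.00064, unadjusted p = 0.0489). Its groups did not overlap.

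The ring of c subunits in Fo, which rotates with the flow of protons, is encoded by the 3 genes Atp5g1, Atp5g2 and Atp5g3, whose mature proteins are identical. Atp5g3 (mm10 chr2:73908447-73911326) had 236, 236 and 232 CPM in control and 211, 223 and 217 CPM in PB (log2 fold change -0.11, 95% interval -0.20 to -0.020, unadjusted p = 0.0242, FDR 0.888 in edgeR). This was the smallest unadjusted p of all 85 genes, and the groups did not overlap. Atp5g1 and Atp5g2 had log2 fold changes of -0.12 (95% interval -0.28 to 0.044) and -0.048 (95% interval -0.17 to 0.074), with overlapping groups. Per length, Atp5g3 gave 55.04, 56.1 and 55.3% in control and 53.6, 56.00 and 53.7% in PB of the summed level of the trio (exact permutation test, two-sided, p = 0.3). Atp5g2 gave 33.3, 32.9 and 33.4% in control and 34.5, 32.3 and 35.2% in PB (p = 0.4 in the same exact test), and Atp5g1 gave the rest. Of the other genes of the complex, Atp5s, a coupling factor, had 7.51, 6.94 and 6.99 CPM in control and 7.62, 6.87 and 7.15 CPM in PB, a log2 fold change of 0.014 (95% interval -0.20 to 0.22).

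Summed over a complex, the direction depended on the scale. In summed CPM, the 20 genes of complex IV had 1677, 1686 and 1612 CPM in control and 1577, 1545 and 1597 CPM in PB, and the 18 of complex V had 3600.0, 3535 and 3484 CPM in control and 3349.9, 3507 and 3329.5 CPM in PB. All PB pools were below all control pools in complex IV, while the groups overlapped in complex V. All 86 genes together had 9382, 9286 and 9091 CPM in control and 8998, 8854 and 9041 CPM in PB, without overlap. The ratio of the group means on the log2 scale was -0.046, with an SD of log2 values of at most 0.023 within a group.

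On the per-length scale the ratio had the opposite sign. The 86 genes summed to 15186, 14091 and 15149 TPM in control and 15889, 14482 and 15923 TPM in PB, a log2 ratio of 0.059 with overlapping groups. With known transcripts alone, the ratio on that scale was -0.042. A TPM value is a share of all transcripts of the pool weighted by their lengths, assembled ones included, so that the sum of all other transcripts also moves it. A change in the total output of OXPHOS genes in either direction is therefore not shown by these values. Per length in control, complex I summed to 4359 ± 171 TPM, complex V to 4490 ± 229 TPM, complex IV to 3862 ± 141 TPM, complex III to 1459 ± 51.4 TPM and complex II to 638 ± 34.5 TPM (SD, n = 3).

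**Figure D2:**
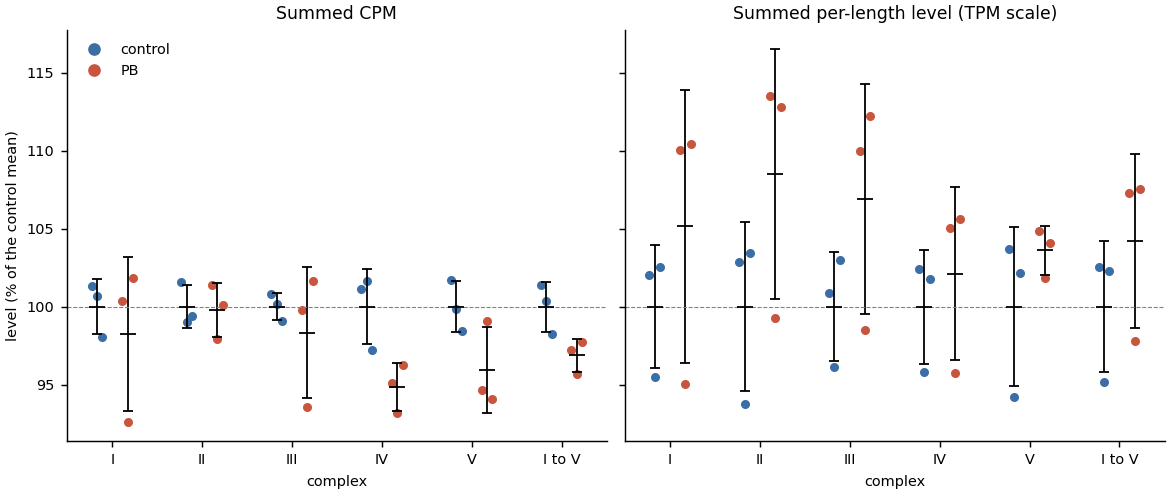
Points show the summed level of each complex in each pool as a percentage of the mean of the control pools, in CPM (left) and per length on the TPM scale (right), with the mean and SD of each group (n = 3) in black; the y axis does not start at 0. For complexes I to V together, the PB pools lie below the control pools on the left (log2 ratio -0.046) and overlap them on the right (log2 ratio 0.059).

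The second question concerned the isoforms that are known from particular tissues, among them the germline. All of them were minor components of their subunit in the fetal ovary, and Cox6b2 was the most abundant. Cox6b2 (mm10 chr7:4751792-4753094), known from testis and sperm, had 49.2, 48.5 and 54.3 TPM in control and 50.5, 45.5 and 51.7 TPM in PB, and its widely expressed partner Cox6b1 (mm10 chr7:30616974-30626151) had 292, 287 and 299 TPM in control and 306, 311 and 309 TPM in PB. Cox6b2 thus made up 14.4, 14.5 and 15.4% in control and 14.2, 12.8 and 14.3% in PB of the pair. The groups did not overlap in this share, and the difference of the means was -1.01 percentage points (exact permutation test, two-sided, p = 0.1, the smallest that 3 against 3 pools can give, and 1 after Benjamini-Hochberg adjustment over the 11 shares tested).

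The counts of Cox6b2 were 18.1, 19.1 and 19.3 CPM in control and 16.98, 16.5 and 17.5 CPM in PB (log2 fold change -0.15, 95% interval -0.29 to -0.0051, unadjusted p = 0.0443). Each PB pool was below each control pool, and the FDR was 0.888 in edgeR. With any 1 pool left out, the unadjusted p was between 0.0503 and 0.124. PB 2, which had the lowest germ cell markers of the PB pools, was also the lowest PB pool in Cox6b2 on both scales. Among the control pools, Cox6b2 was lowest in control 1 in CPM and in control 2 per length. The part of germ cell content in the difference was not tested.

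The promoters of the Cox6b pair are shown because the 2 genes encode the same subunit at different levels, together with those of Sdhb and Atp5f1, which show the other motifs searched for. The sequences run 5′ to 3′ from 250 bases before to 50 bases after the transcription start and come from RefSeq (GRCm38.p6, the assembly that mm10 is drawn from). Capitals mark a match to a motif on either strand, GCATGCGC for NRF1, CCGGAAG for ETS factors such as GABP, and AAGATGGC for YY1, factors known to regulate OXPHOS genes.
Cox6b1 promoter, chr7:30626065-30626364, minus strand: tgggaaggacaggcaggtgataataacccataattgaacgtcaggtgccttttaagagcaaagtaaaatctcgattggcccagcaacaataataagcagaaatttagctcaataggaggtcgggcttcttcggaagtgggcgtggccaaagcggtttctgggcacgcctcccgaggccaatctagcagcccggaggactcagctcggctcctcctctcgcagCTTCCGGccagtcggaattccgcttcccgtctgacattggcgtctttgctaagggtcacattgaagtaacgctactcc
Cox6b2 promoter, chr7:4753045-4753344, minus strand: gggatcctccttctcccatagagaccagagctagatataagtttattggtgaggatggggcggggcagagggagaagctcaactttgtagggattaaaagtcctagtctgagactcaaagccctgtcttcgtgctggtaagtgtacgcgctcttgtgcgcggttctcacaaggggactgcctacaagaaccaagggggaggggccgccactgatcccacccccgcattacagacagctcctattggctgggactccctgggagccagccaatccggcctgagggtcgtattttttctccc
Sdhb promoter, chr4:140961021-140961320, plus strand: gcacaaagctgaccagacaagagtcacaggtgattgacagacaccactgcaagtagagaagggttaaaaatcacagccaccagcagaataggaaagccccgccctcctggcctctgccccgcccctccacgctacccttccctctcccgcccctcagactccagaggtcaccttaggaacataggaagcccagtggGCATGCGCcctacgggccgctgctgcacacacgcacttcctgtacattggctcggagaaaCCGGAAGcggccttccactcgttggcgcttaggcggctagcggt
Atp5f1 promoter, chr3:105959214-105959513, minus strand: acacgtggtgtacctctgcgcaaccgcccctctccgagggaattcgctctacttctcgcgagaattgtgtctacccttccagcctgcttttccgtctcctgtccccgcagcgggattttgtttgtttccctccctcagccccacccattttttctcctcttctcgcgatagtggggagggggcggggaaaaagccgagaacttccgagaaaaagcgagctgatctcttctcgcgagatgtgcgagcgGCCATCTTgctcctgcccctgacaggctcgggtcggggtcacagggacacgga

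The Cox6b1 promoter holds 1 ETS motif and the Cox6b2 promoter holds none of the 3 motifs. A promoter was given for 69 of the 86 genes. Of these, 31 (44.9%) held at least 1 of the motifs, against 14.9% of all 27025 genes with a promoter. NRF1 was found in 14.5% of the OXPHOS promoters (3.05% of all and 5.01% of those of tested genes), ETS in 23.2% (9.93% and 16.1%) and YY1 in 15.9% (3.19% and 4.24%), and in 0 OXPHOS promoters did matches to different motifs overlap. Among the 13903 tested genes that matched by symbol, 23.1% held at least 1 motif. A match is a description of the letters and does not show that a factor binds there.

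The other isoforms known from testis were weakly expressed but detected in each pool. Cox8c had 1.21, 0.969 and 0.998 CPM in control and 1.35, 0.587 and 1.60 CPM in PB, and Cox7b2 had 0.519, 0.214 and 0.563 CPM in control and 0.545, 0.225 and 0.379 CPM in PB, against a floor of 3 counts per pool of 0.0238 to 0.0309 CPM. Cox8c made up 1.35, 1.01 and 1.19% in control and 1.74, 0.637 and 2.05% in PB of its pair with Cox8a. Cox7b2 made up 2.12, 0.820 and 2.36% in control and 2.45, 0.881 and 1.81% in PB of its pair with Cox7b. Both genes were lowest in control 2 and PB 2, the pools with the lowest germ cell markers, an order whose frequency among all genes was not counted. Their log2 fold changes were 0.16 (95% interval -0.73 to 1.04) and -0.17 (95% interval -1.33 to 0.99), and both intervals reach beyond a 1.2-fold change in either direction.

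Among the isoforms known from muscle, Cox7a1 was the highest, with 19.8, 12.3 and 18.8 TPM in control and 19.04, 12.7 and 19.9 TPM in PB and 10.96, 7.65 and 10.2% in control and 10.7, 8.11 and 10.2% in PB of its pair with Cox7a2. In CPM it had 4.91, 3.27 and 4.50 CPM in control and 4.31, 3.08 and 4.53 CPM in PB (log2 fold change -0.088, 95% interval -0.60 to 0.42, unadjusted p = 0.693). It was lowest, not highest, in the pools with the most muscle RNA, control 2 and PB 2. Cox6a2 followed the muscle markers instead. It had 0.244, 1.05 and 0.680 CPM in control and 0.212, 2.74 and 0.456 CPM in PB (log2 fold change 0.78, 95% interval -1.54 to 3.11, unadjusted p = 0.448), highest in PB 2 and then in control 2, and without PB 2 its log2 fold change was -0.97. Cox8b had 0.143, 0.240 and 0.170 CPM in control and 0.0303, 0.382 and 0 CPM in PB, also highest in PB 2, and 0 counts in PB 3, which allows a level of up to 0.0250 CPM. Its log2 fold change was -0.44 (95% interval -3.33 to 2.45).

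Cox4i2, known from the lung, and Ndufa4l2, known as a target of the response to low oxygen, had 1.201, 1.95 and 1.54 CPM in control and 1.17, 1.65 and 1.69 CPM in PB and 4.53, 4.79 and 3.23 CPM in control and 3.55, 3.87 and 4.99 CPM in PB. They made up at most 0.539% and 2.33% of their pairs with Cox4i1 and Ndufa4. Their log2 fold changes were -0.054 (95% interval -0.64 to 0.53) and -0.015 (95% interval -0.50 to 0.47). None of the 11 isoform shares could pass an exact test at 3 against 3 pools, and all 11 had an adjusted p of 1.

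**Figure D3:**
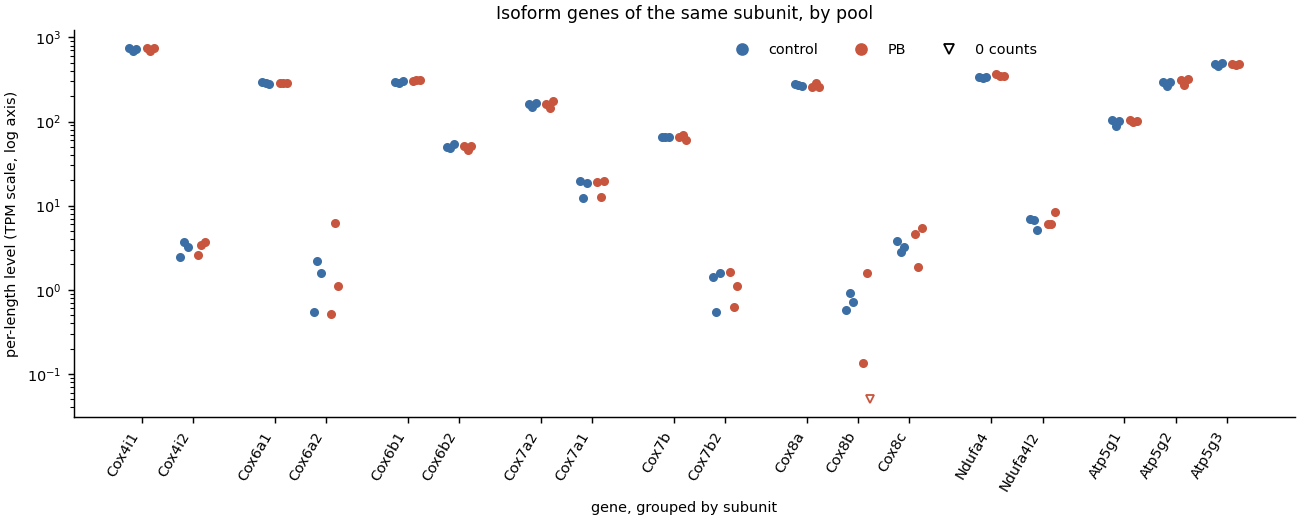
Per-length level (TPM scale, log axis) of the genes that encode alternative forms of the same subunit, 1 point per pool, control in blue and PB in red; the open triangle marks the pool with 0 counts of Cox8b and is drawn at an arbitrary height. Cox6b2, at 45.5 to 54.3 TPM, is the highest of the tissue isoforms, and Cox6a2 and Cox8b spread widely between pools.

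**Figure D4:**
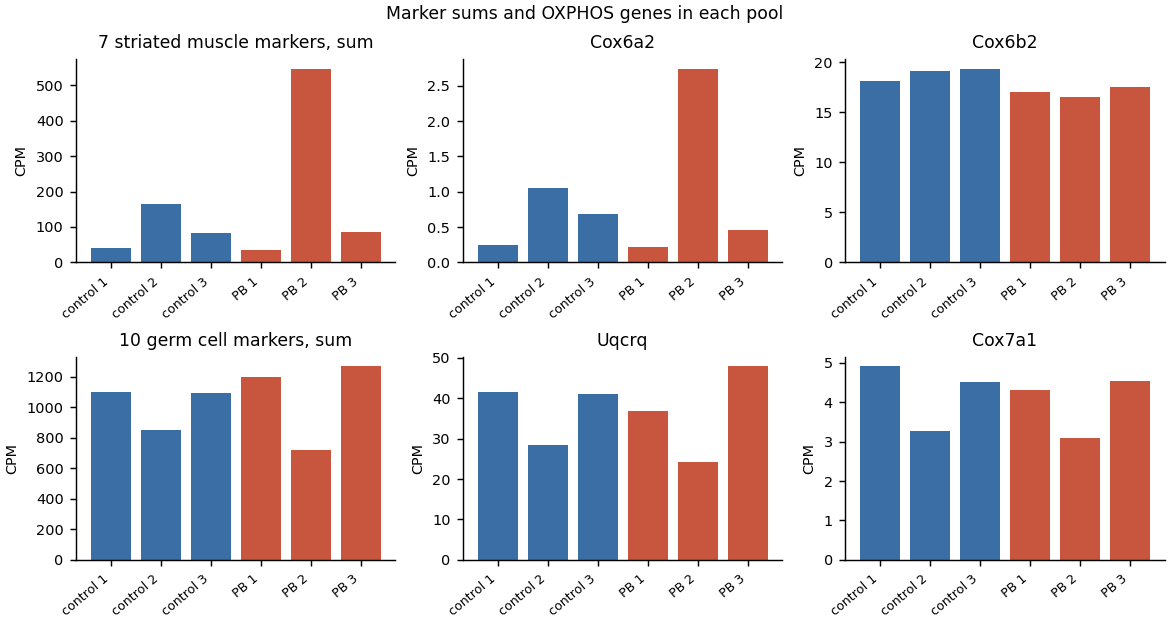
CPM in each pool for the summed muscle markers, the summed germ cell markers and 4 OXPHOS genes. Cox6a2 is highest where the muscle markers are (PB 2), Uqcrq and Cox7a1 are lowest in control 2 and PB 2 as the germ cell markers are, and Cox6b2 is lower in all PB pools. How many of all genes share the order of the germ cell markers was not counted.

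The ovary also expressed other genes of energy metabolism known from the germline. A list held 12 such genes, widely expressed counterparts included. Of these, 0 reached an unadjusted p under 0.05, against 2.43% lower and 2.03% higher among all genes tested. Slc25a31, the germline ADP/ATP carrier, had 92.02, 69.1 and 91.2 CPM in control and 107, 59.5 and 124 CPM in PB, lowest in control 2 and PB 2. It was chosen after its values were seen, and how many genes share this order was not counted. Cyct, the testis form of cytochrome c, had 7.42, 5.51 and 7.78 CPM in control and 3.84, 4.29 and 6.47 CPM in PB (log2 fold change -0.50, 95% interval -1.06 to 0.054, unadjusted p = 0.0699). Ldhc, the testis lactate dehydrogenase, had 5.08, 6.06 and 5.26 CPM in control and 6.06, 6.07 and 9.77 CPM in PB (log2 fold change 0.42, 95% interval -0.083 to 0.92, unadjusted p = 0.0884). PB 2 was the lowest PB pool in neither Cyct nor Ldhc.

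The subunits encoded in mtDNA had fold changes above 1, unlike most nuclear ones. Of the 13 genes, 12 had a log2 fold change above 0, with a median of 0.26, and 9 reached an unadjusted p under 0.05, all higher in PB (against 2.03% of all genes tested). 0 of them was called by edgeR, and the smallest FDR was 0.888. ND6, of complex I, had 44.7, 42.7 and 46.7 CPM in control and 51.1, 62.5 and 63.5 CPM in PB (log2 fold change 0.40, 95% interval 0.18 to 0.62, unadjusted p = 0.00419). COX1, the catalytic core of complex IV, had 4344, 4116 and 4573 CPM in control and 4996, 5241 and 5775 CPM in PB (log2 fold change 0.30, 95% interval 0.12 to 0.48, unadjusted p = 0.00622). In both genes each PB pool was above each control pool. ND2 had a log2 fold change of 0.31 (95% interval 0.10 to 0.52). ND3, of complex I, was the exception, with a log2 fold change of -0.13 (95% interval -0.28 to 0.016) and each PB pool below each control pool.

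Most mtDNA genes are transcribed together as parts of long precursors, ND6 from the opposite strand, and they are not independent measurements. Transcripts of mtDNA held 1.40% to 1.65% of the counts in control and 1.73% to 1.89% in PB. The number of the 13 with an unadjusted p under 0.05 and higher in PB was 8, 6 and 11 without control 1, 2 and 3 (against 1.19%, 1.59% and 1.56% of all genes tested) and 10, 7 and 6 without PB 1, 2 and 3 (against 2%, 7.42% and 1.2%). It was 4 when both control 2 and PB 2 were left out (against 6.91%). The difference between nuclear and mtDNA-encoded genes was not tested.

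**Figure D5:**
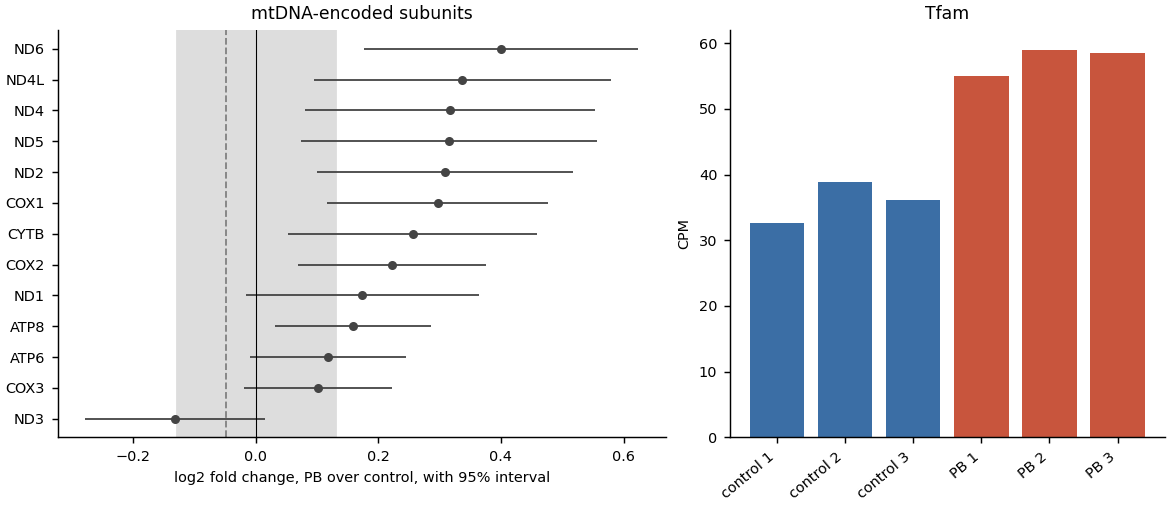
Left, log2 fold change in PB over control of the 13 mtDNA-encoded subunit genes with their 95% intervals; the grey band spans the log2 fold changes of the 74 widely expressed nuclear genes (-0.13 to 0.13) and the dashed line their median (-0.049). Right, CPM of Tfam in each pool, control in blue and PB in red, without overlap between the groups.

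Of the 15 tested genes that regulate mitochondrial transcription and biogenesis, 2 were higher (13.3%, against 2.03% of all genes tested) and 2 lower in PB (13.3%, against 2.43%) at an unadjusted p under 0.05, and 0 were called. Tfam, which packages mtDNA and starts its transcription, had 32.6, 38.8 and 36.1 CPM in control and 55.04, 59.04 and 58.5 CPM in PB (log2 fold change 0.68, 95% interval 0.50 to 0.86, unadjusted p = 6.05e-05). Each PB pool was above each control pool, and the mean was 1.60-fold higher. The FDR was 0.140 in edgeR and 1.89e-10 in DESeq2, and the fold was under 2 in both. Neither tool called it, since it missed both thresholds in edgeR and the fold threshold in DESeq2. Its log2 fold change was 0.615 to 0.739 and the FDR 1.89e-10 to 0.648 over 14 alternatives. The DESeq2 Wald test was the 1 alternative with an FDR of at most 0.05. Polg, the mtDNA polymerase, had 69.6, 64.6 and 68.4 CPM in control and 55.6, 60.1 and 59.7 CPM in PB (log2 fold change -0.21, 95% interval -0.34 to -0.075, unadjusted p = 0.00812, FDR 0.888 in edgeR), with each PB pool below each control pool. Tfb1m, a mitochondrial rRNA methyltransferase, had 18.98, 17.9 and 18.5 CPM in control and 23.5, 19.1 and 23.4 CPM in PB (log2 fold change 0.25, 95% interval 0.028 to 0.48, unadjusted p = 0.0327, FDR 0.888 in edgeR), with each PB pool above each control pool.

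The factors that build the complexes were read from a list of their own. Of 49 assembly factors listed, 47 were tested, with a median log2 fold change of -0.024. At an unadjusted p under 0.05, 0 were lower (against 2.43% of all genes tested) and 0 higher (against 2.03%). The smallest p belonged to Ndufaf6, which acts on complex I (log2 fold change -0.21, 95% interval -0.42 to 0.013, unadjusted p = 0.061). Of 9 symbols listed for electron carriers, subunits and related proteins outside the rule, 7 were among the gene names and were tested. Of these 7, 0 reached an unadjusted p under 0.05, against 2.43% lower and 2.03% higher among all genes tested. Cyc1, the cytochrome of complex III, had 145, 133 and 136 CPM in control and 133, 122 and 128 CPM in PB (log2 fold change -0.11, 95% interval -0.24 to 0.015, unadjusted p = 0.0748). All 7 had a log2 fold change below 0 (against 49.3% of all genes tested), with a median of -0.11. Of all tested genes above 20 CPM and under 1000 bases, a group to which not all 7 belong, 75.0% were below 0.

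Transcripts were tested as well, and the 86 genes comprised 170 of them in the merged assembly. Of these, 157 passed the filter, and edgeR called 0, against 0.0332% of all 51227 transcripts tested. At an unadjusted p under 0.05 it listed 6 (3.82%, against 3.56% of all), 2 higher and 4 lower in PB. DESeq2 called 1 of 161, against 1.84% of the 63489 transcripts for which it gave an adjusted p. The share of counts on transcripts assembled outside RefSeq was 2.62%. The variation between pools (biological coefficient of variation) was 98.4% for transcripts against 21.0% for gene sums, so the transcript test could show large differences alone.

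The transcript called by DESeq2 belongs to Atp5h, a stalk subunit. The assembled transcript MSTRG.3482.3 had 510, 1326 and 1806 counts in control and 0, 0 and 0 counts in PB (DESeq2 adjusted p 1.67e-14, edgeR FDR 0.287). It held 5.33% of the counts of the gene. Transcripts of the RefSeq annotation held 6.28% of the counts of Atp5h in control and 4.79% in PB. Most of its gene sum thus lay on assembled transcripts. The gene sum was 106, 114 and 103 CPM in control and 108, 112 and 110.2 CPM in PB (log2 fold change 0.030, 95% interval -0.095 to 0.16, unadjusted p = 0.584), with overlapping groups.

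In 4 of the 38 genes with several transcripts (Atp5d, Atp5f1, Ndufa12 and Ndufs1, of which the first 2 were named after their values were seen), the transcript with the most counts was not the same in each pool. The clearest was Atp5f1, a stalk subunit. Its transcript NM_001304719.1 had 28544, 24173 and 26871 counts in control and 24445, 26507 and 25 counts in PB, and NM_009725.4 had 0, 0 and 0 counts in control and 0, 0 and 28599 counts in PB. Nearly all counts of this pair thus lay on the other transcript in PB 3, while the sum was 291, 207 and 285 CPM in control and 246, 259 and 246 CPM in PB. Atp5d, a subunit of the central stalk, alternated within both groups. Its transcript NM_025313.2 had 15528, 3401 and 2556 counts in control and 7705, 14807 and 3157 counts in PB, and XM_017314052.1 had 52, 10785 and 8238 counts in control and 4706, 21 and 10502 counts in PB. The opposite transcript led in other pools of the same group, so the division of reads between transcripts did not follow exposure in this gene.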

How the data were processed

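Strand-specific libraries of 3 control and 3 PB pools of E15.5 ovaries had been sequenced. Reads were mapped by the authors to the mm10 genome (HISAT2 2.1.0) and assembled into transcripts (StringTie 1.3.5, guided by RefSeq). The deposited counts are raw whole numbers per transcript from prepDE, with no normalization (114412 transcripts). Reads of overlapping transcripts are shared out by StringTie, and this affects transcript counts more than gene sums. Tool versions come from the submitters' processing notes. The deposited comparison table gave gene names only. Its columns of the authors' own test (fold changes, p-values) and its 6 columns of normalized values were not used. Lengths and positions came from the deposited annotation.

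Counts were summed per gene name. The 1490 transcripts without a name, with 3.05% to 4.49% of the counts of a pool, were left out of gene sums. Genes were kept by filterByExpr (minimum count 10, minimum total 15), scaled by TMM and tested with edgeR 4.0.16 in R 4.3.3 (limma 3.58.1), with Benjamini-Hochberg adjustment over all genes. Genes past an FDR of 0.05 with a change of 2-fold or more were called. The 95% intervals use the standard error taken from the F statistic. TPM-scale levels are counts divided by exon length, scaled to the sum of the pool. Isoform shares were compared with exact permutation tests. DESeq2 1.42.0, other scalings and filters, known transcripts, StringTie loci, the replicate number and left-out pools were alternatives. The tests were also run on simulated counts with changes of 2-fold or more. The outcome is not given here and does not bear on smaller changes. Depths were 97165644 to 125985399 counts, and a count of 0 allows up to 3 counts. Floors cover counting error only, whereas the 95% intervals of fold changes also include the spread between pools.

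Genes are named by rule. These are the isoform pairs and the c subunit genes, 10 catalytic or core subunits, the highest and lowest gene per length in each complex, the 3 smallest p-values in each direction, and genes with a called transcript. From other lists, at most 3 examples by smallest p are given, apart from those said to be chosen otherwise. ND3 and Slc25a31 were chosen after their values were seen. The members and lists were chosen with earlier results of these data known.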

Additional observations from a re-analysis of the deposited data

How the results depend on the processing

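The number of OXPHOS genes called was 0 under all alternatives run, which include DESeq2, an FDR of 0.05 or 0.1 with no fold threshold, and leaving out each pool. The count of genes lower at an unadjusted p under 0.05 was 5 in the main fit (against 2.43% of all genes tested). It was 2 with the DESeq2 Wald test (against 2.04%). It was 2 without a filter, 2 with the replicate number as a block, and 0 with library totals alone. For these last fits the share of all genes is not given here. With 1 pool left out, the count of lower genes was between 0 and 9 (against 1.53% to 4.9% of all genes tested). The count of higher genes was between 0 and 5 (against 1.19% to 7.42%). With both control 2 and PB 2 left out, an alternative chosen after seeing the data, 5 genes were higher (against 6.91%). The median log2 fold change was below 0 in each alternative. It was -0.0113 with library totals alone and -0.0439 to -0.0697 with 1 pool left out. The correlations of deviations from the group means were 0.087, 0.122 and -0.0194 for same-numbered pools. For differently numbered pools they ran from -0.149 to 0.0769. With 3 pools per group, these values cannot decide whether the replicate numbers pair the pools. Under the block, no OXPHOS gene was called. At the transcript level DESeq2 called 1 where edgeR called 0. The share of Atp5g1 in its trio differed by 0.97 percentage points between the groups with known transcripts alone, against 0.203 in all transcripts. Of 585 values of the 39 named genes under the alternatives, 54 had the opposite sign, and none of these belonged to a gene with an unadjusted p under 0.05. The cause of these differences was not tested. Depth limits the weakly expressed isoforms, and pools of mixed cells limit what any gene sum can show of 1 cell type.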
